A study of Mus musculus with 16 samples.

Results

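The genes Ebf1, Ebf2, Ebf3, Zfp423, Zfp521 and Prdm16 were followed as the EBF and zinc finger commitment factors. They were chosen by name, and they are 6 of 22367 protein-coding genes of the mm9 annotation. The region of each was its gene body plus 100 kb on each side, called its window. The 6 windows held 1063 of the 479799 islands in 16 lists. An island is a stretch of enriched 200 bp windows, reported with a start, an end and a score.

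All libraries were from 3T3-L1, a line of mouse preadipocytes that turns into fat cells when treated with MDI (insulin, dexamethasone and isobutylmethylxanthine). H3K27ac, an acetylation mark of active enhancers and promoters, was profiled at 0 h and 48 h of MDI in cells transduced with an empty virus and in cells transduced with SETD5-V5, with 2 replicates named A and B in each of the 4 groups. SETD5, a SET domain protein found with the NCoR and HDAC3 co-repressors, carried a V5 tag at its carboxyl end, and was driven by the weak LTR promoter of a retrovirus in a transduced population, on top of the endogenous protein. V5-tagged SETD5 was profiled with a V5 antibody at 0 h and 6 h, with replicates A and B. H3K4me1, found at enhancers whether primed or active, was profiled at 0 h and 48 h, and endogenous SETD5 at 0 h and 6 h, with 1 library each and therefore no replicate check. The labels name no virus for replicate A of SETD5-V5 and name the SETD5 virus for H3K4me1, whereas the study describes transduced cells for the first and untransduced cells for the second. The study describes replicates A and B of H3K27ac and SETD5-V5 as biological replicates.

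EBF proteins are DNA-binding factors with a helix-loop-helix dimerization domain, first known from early B cells, and they recognize a palindromic site. Ebf1 is needed for B cell specification and promotes fat cell differentiation, Ebf2 marks precursors of brown and beige fat and assists PPARγ at brown fat genes, and Ebf3 is the close relative known mostly from the nervous system. Zfp423 is a multi-zinc-finger protein that commits cells to the preadipocyte state and restrains EBF2 in white fat, and Zfp521 is its relative that holds back fat differentiation. Prdm16 is a zinc finger co-regulator that directs precursors towards brown fat.

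The lists held 31292 to 39949 islands for H3K27ac, 6666 to 35573 for SETD5-V5, 50276 and 49926 for H3K4me1, and 2132 and 3293 for endogenous SETD5. The lists give no reads within islands, so that absence from a list means only that a region was under the caller's threshold. In these bulk populations, fewer cells with a mark and less of it per cell cannot be told apart. Of the 8 fibroblast and preadipocyte markers, including Pdgfra, Col1a1 and Dlk1, all 8 had an H3K27ac island at the start site in both libraries of each of the 4 groups. Of 7 adipocyte markers, 3 had one in each 0 h group, 6 in empty vector cells at 48 h and 5 in SETD5 cells at 48 h. Cd36 had none in any group, and at 48 h Adipoq had none in SETD5 cells. Among all genes, 43.9% to 46.5% had such an island in both libraries of a group. The 9 markers of muscle, epithelium, blood and liver had none. SETD5 cells had longer H3K27ac lists than empty vector cells (36604 to 39949 islands against 31292 to 35460), and the SETD5-V5 list of replicate B at 0 h held 6666 islands against 16054 in replicate A. These differences in list length move with the comparisons, and their part in the results was tested only where equal numbers of islands are named. By the totals the study states, every SETD5 H3K27ac library also had more reads than every empty vector library. Depth and vector thus move together, and the part of depth was not tested.

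The sequences on which the results turn are given from the mm9 genome on the strand of the gene, 300 bases each. Capitals mark matches to the letters TCCCNNGGG (EBF), TTGCNNAA (C/EBP) or TGANTCA (AP-1) on either strand, overlapping matches being counted as 1. The Ebf3 promoter lies in the longest H3K27ac island of its gene, and the Ebf3 intronic element was listed at 0 h and not at 48 h.
Ebf3 promoter, chr7:144506079-144506378, minus strand: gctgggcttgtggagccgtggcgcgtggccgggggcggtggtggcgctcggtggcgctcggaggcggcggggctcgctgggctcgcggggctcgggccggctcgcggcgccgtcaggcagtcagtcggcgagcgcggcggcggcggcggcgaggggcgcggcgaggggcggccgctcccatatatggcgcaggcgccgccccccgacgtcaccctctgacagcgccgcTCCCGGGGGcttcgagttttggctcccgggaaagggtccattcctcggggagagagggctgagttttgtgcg
Ebf3 element at +19.8 kb, chr7:144486151-144486450, minus strand: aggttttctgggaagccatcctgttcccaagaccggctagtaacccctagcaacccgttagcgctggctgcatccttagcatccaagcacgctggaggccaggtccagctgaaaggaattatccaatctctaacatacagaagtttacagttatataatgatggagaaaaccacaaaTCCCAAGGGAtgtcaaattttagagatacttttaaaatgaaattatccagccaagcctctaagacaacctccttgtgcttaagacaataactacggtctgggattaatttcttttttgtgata
The Ebf2 upstream element was listed in all 8 H3K27ac libraries. The Ebf2 intronic element was listed for H3K27ac in SETD5 cells at 48 h only, and gained SETD5-V5 islands at 6 h.
Ebf2 element at -44.3 kb, chr14:67807651-67807950, plus strand: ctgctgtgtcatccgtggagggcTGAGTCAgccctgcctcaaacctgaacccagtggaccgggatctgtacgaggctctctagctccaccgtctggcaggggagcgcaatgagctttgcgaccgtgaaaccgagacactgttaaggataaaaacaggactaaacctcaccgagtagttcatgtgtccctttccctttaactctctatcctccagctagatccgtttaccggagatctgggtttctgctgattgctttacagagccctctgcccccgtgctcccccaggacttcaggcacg
Ebf2 element at +50.1 kb, chr14:67902051-67902350, plus strand: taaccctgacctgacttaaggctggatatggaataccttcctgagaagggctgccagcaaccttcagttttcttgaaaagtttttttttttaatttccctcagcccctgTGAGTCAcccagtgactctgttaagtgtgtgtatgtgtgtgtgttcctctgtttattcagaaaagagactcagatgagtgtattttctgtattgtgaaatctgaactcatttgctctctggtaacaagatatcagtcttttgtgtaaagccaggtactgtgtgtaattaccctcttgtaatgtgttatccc
The Zfp423 element was the highest-scoring H3K27ac island of its window in all 4 libraries at 0 h, and the Prdm16 promoter is shown for its lack of islands of any kind.
Zfp423 element at +257 kb, chr8:90226251-90226550, minus strand: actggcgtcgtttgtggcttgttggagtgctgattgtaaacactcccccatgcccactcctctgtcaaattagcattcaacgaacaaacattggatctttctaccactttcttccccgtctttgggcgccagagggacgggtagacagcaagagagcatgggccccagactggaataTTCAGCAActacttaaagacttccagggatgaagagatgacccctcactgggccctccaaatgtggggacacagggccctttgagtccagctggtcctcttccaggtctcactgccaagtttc
Prdm16 promoter, chr4:154010933-154011232, minus strand: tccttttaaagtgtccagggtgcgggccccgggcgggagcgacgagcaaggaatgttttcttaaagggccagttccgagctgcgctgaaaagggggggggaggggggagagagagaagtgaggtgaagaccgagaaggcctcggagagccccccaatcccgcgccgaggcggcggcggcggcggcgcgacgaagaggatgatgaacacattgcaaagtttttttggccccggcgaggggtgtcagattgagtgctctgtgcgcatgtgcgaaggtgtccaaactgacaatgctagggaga

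The Ebf3 promoter held 46 CpG and was 77% GC, and the Prdm16 promoter held 24 CpG and was 61% GC. Within the 300 bases shown, an EBF match was present in the Ebf3 promoter and in its +19.8 kb element, an AP-1 match in both Ebf2 elements, and a C/EBP match in the Zfp423 element. The whole elements held matches of other kinds too. The Ebf2 element at +50.1 kb held 2 EBF and 1 C/EBP, and that at -44.3 kb held 2 C/EBP. The Zfp423 element held 2 EBF, 3 C/EBP and 2 AP-1. The Prdm16 promoter held no match. Of all promoters of this length, 7.15% held an EBF, 10.3% a C/EBP and 6.93% an AP-1 match, and of the middle 300 bases of all H3K27ac elements 4.71%, 14.8% and 11.5%. An element here is the union of overlapping H3K27ac islands of the 8 lists. Over whole elements, EBF matches occurred at 0.285 per kb in the Zfp423 window and 0.316 per kb in the Prdm16 window, against 0.147 per kb in all elements, and at 0.0854 per kb in the Ebf1 window and 0.0955 per kb in the Zfp521 window. The Ebf2 and Ebf3 windows, with 0.154 and 0.165 matches per kb, were near the value of all elements. C/EBP matches ranged from 0.237 per kb (Prdm16) to 0.58 per kb (Ebf1), against 0.49 per kb in all elements. AP-1 matches ranged from 0.257 per kb (Prdm16) to 0.461 per kb (Ebf2), against 0.362 per kb. A match is a description of letters and not a bound site.

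H3K27ac cover, the percentage of a window lying in islands, set the 6 genes far apart. In empty vector cells at 0 h it was 28.5% ± 7.33 (SD, n = 2) for Ebf1, 9.9% ± 2.47 for Zfp521, 9.7% ± 2.53 for Zfp423, 7.11% ± 0.0882 for Ebf3, 6.07% ± 0.815 for Prdm16 and 1.08% ± 0.82 for Ebf2. Zfp521 and Zfp423 overlapped in their replicates, while every other pair of neighbours in this order did not. The Ebf1 window had more cover than 94% to 98.8% of all windows in the 8 libraries, and the Ebf2 window more than 19.2% to 68.4% of them. The cover of every window was tested with limma over 18421 protein-coding windows, with Benjamini-Hochberg adjustment and a call at an adjusted p under 0.05. From 0 h to 48 h in empty vector cells, 3 of the 6 genes (Ebf3, Zfp521 and Prdm16) were called lower and none higher, where 14.5% of all windows were called lower and 28.7% higher. The H3K27ac islands of the Prdm16 window all lay downstream of that gene, in Megf6 and Arhgef16. At 48 h Ebf2 and Ebf3 were called higher in SETD5 than in empty vector cells and none was called lower, where 7.95% of all windows were called higher and 12.4% lower.

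**Figure D1:**
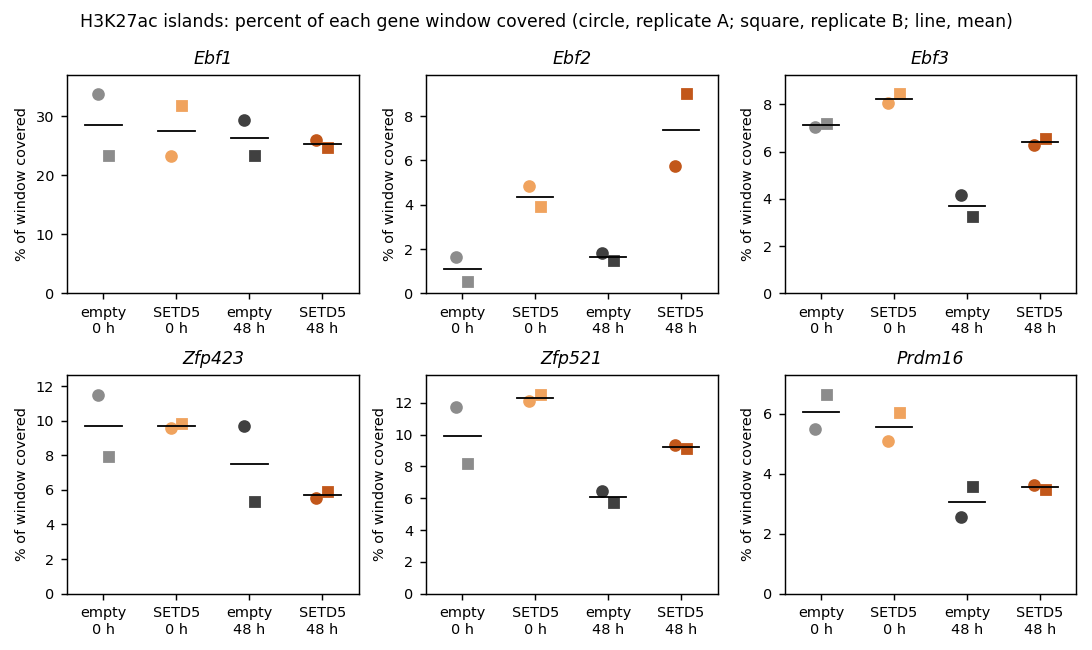
Percent of each gene window covered by H3K27ac islands (vertical axis, starting at 0 and scaled to each gene) in 4 groups (horizontal axis), with circles for replicate A, squares for replicate B and a line for the mean of the 2. Ebf2 sits lowest in empty vector cells, with 0.504% to 1.82%, and reaches 5.75% and 8.98% in SETD5 cells at 48 h, while Ebf3 and Prdm16 are lower at 48 h than at 0 h in every library of empty vector cells. The islands of the Prdm16 window lie in Megf6 and Arhgef16, outside the Prdm16 gene.

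The window of Ebf1 (ENSMUSG00000057098.7, chr11:44330819-44921593, 591 kb) carried the densest H3K27ac of the 6 at every time and in both vectors. Its cover was 33.7% and 23.3% in empty vector cells at 0 h (A and B), 29.4% and 23.2% at 48 h, 23.3% and 31.8% in SETD5 cells at 0 h, and 26% and 24.6% at 48 h. The replicates of a group differed by as much as the groups did, and all 4 groups overlapped. The difference between 48 h and 0 h was -2.25 ± 3.73 percentage points (SE, adjusted p = 0.662, limma) in empty vector cells and -2.23 ± 3.73 (adjusted p = 0.707) in SETD5 cells. Between 30 and 40 islands lay in the window in each H3K27ac library, 22 to 32 of them over the gene body. Of 40 elements in the window, 19 (47.5%) were listed in all 8 libraries, against 33.1% of 52695 elements in the genome.

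The leading Ebf1 island changed place with time in empty vector cells. At 0 h it was an intronic island of 17800 bp (A) and 12600 bp (B) near +359 kb, with scores that 0.917% and 1.15% of the list exceeded. At 48 h the island over the start site led, with 12400 bp and 7800 bp and with 1.86% and 1.42% of the list above it, while the island at +359 kb ranked 4 and 3 in the window. In SETD5 cells the +359 kb island led in replicate A at 0 h only, and the start-site island led in the other 3 libraries. Both islands were in all 8 lists. Of the elements that differed between groups, those at +441 kb (4600 bp) and +488 kb (4600 bp), downstream of Ebf1, were the longest lost from 0 h to 48 h in empty vector cells, and the intronic ones at +154 kb (4800 bp) and +178 kb (4800 bp) the longest gained. In SETD5 cells the intronic element at +85.8 kb (3200 bp) was the longest lost and that at +171 kb (3800 bp) the longest gained.

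Ebf2, the brown and beige precursor factor, had more H3K27ac islands in SETD5 cells than in empty vector cells. Its window (ENSMUSG00000022053.6, chr14:67752129-68148604, 396 kb) held 2 and 1 islands in empty vector cells at 0 h, 4 and 4 at 48 h, 8 and 7 in SETD5 cells at 0 h, and 14 and 17 at 48 h. Its cover in the same order was 1.66% and 0.504%, 1.82% and 1.46%, 4.84% and 3.88%, and 5.75% and 8.98%. Every SETD5 library lay above every empty vector library, at both times. At 48 h cover was higher in SETD5 cells by 5.73 ± 0.906 points (adjusted p = 0.00233, limma), a difference larger than that of 98% of windows. At 48 h, 7.95% of windows were called higher and 12.4% lower in SETD5 cells, and the median over all windows was -0.25 points.

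The same difference at Ebf2 was 3.28 ± 0.906 points at 0 h and did not pass the test (adjusted p = 0.0999), in a comparison that called 2.64% of windows in either direction. From 0 h to 48 h Ebf2 cover rose by 3 ± 0.906 points in SETD5 cells (adjusted p = 0.0291), where 17.3% of windows were called higher and 13.9% lower. In empty vector cells the difference was 0.555 ± 0.906 points (adjusted p = 0.658). The test of the difference between these changes, the interaction of time and vector, gave 2.45 ± 1.28 points (adjusted p = 0.287) and called 6.16% of windows. The rise with time in SETD5 cells did not pass with 50 kb flanks (adjusted p = 0.0711), with equal numbers of islands per list (1.69 points, adjusted p = 0.187), on a log2 scale (adjusted p = 0.151), or without replicate A at 0 h (adjusted p = 0.0736), B at 0 h (0.184) or B at 48 h (1.39 points, 0.186).

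The islands that appeared at Ebf2 in SETD5 cells were weak. The SETD5 libraries also had more total reads, and the part of depth in these islands was not tested. The island at -44.3 kb, the only one in all 8 lists, led the window in each, with 2000 and 2000 bp in empty vector cells at 0 h, 2400 and 1800 bp at 48 h, 2000 and 2000 bp in SETD5 cells at 0 h and 1800 and 2000 bp at 48 h. Its score was exceeded by 21.6% to 24.8% of the list in 6 libraries, and by 15.7% and 17.4% in SETD5 cells at 48 h. The second island in SETD5 cells at 48 h, at +40 kb, was exceeded by 49.1% (A) and 43.3% (B) of the list, and only 2 and 3 of the 14 and 17 islands scored above the median of their list. Restricted to islands above the median score, the difference at 48 h was 0.807 points (adjusted p = 0.089), and the rise with time in SETD5 cells became -0.277 points (adjusted p = 0.528). With equal numbers of islands in each list, the difference at 48 h was 3.99 points (adjusted p = 0.0129).

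Most of the gained islands lay in the gene body of Ebf2. With the empty vector, islands over the gene body numbered 0 and 0 at 0 h and 1 and 0 at 48 h, and with SETD5 4 and 3 at 0 h and 9 and 10 at 48 h. Of the 110 windows of 200 bp listed in both SETD5 libraries at 48 h, 87 (79.1%) were in neither empty vector library, against 13.6% over the genome. Of 14 elements listed in both, 11 (78.6%) were new in this sense, against 16.8% of all elements. The longest of these were at +200 kb (5400 bp), downstream of the gene, and at +245 kb (3800 bp). At 0 h the gained share was 55.9% of 59 windows, against 7.99%, and 4 of 6 elements (66.7%), against 8.63%. Of the 23 windows listed at 48 h in both empty vector libraries, 2 (8.7%) were in neither SETD5 library, against 12.9%, and at 0 h none of 7 was, against 7.05%. For elements the lost shares were 0 of 3 at 48 h and 0 of 1 at 0 h, against 7.04% and 4.19%.

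No H3K27ac island overlapped 1000 bp on either side of the Ebf2 start site in any of the 8 lists. The nearest element was at +1.87 kb (1200 bp, in an exon), listed in both SETD5 libraries at 48 h and in no other. Empty vector cells gained elements at -22.5 kb (5200 bp) and -30 kb (1800 bp) between 0 h and 48 h, in both libraries, and the first was also listed in both SETD5 libraries at 48 h. Of the 23 windows of 200 bp in both empty vector libraries at 48 h, 14 (60.9%) were in neither at 0 h, against 29.6% over the genome. None of the 7 at 0 h was lost, against 28%. In SETD5 cells 43 of 110 (39.1%) were gained with time, against 24.3%. The lost share, 13 of 59 (22%), was near the 22.9% of the genome.

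**Figure D2:**
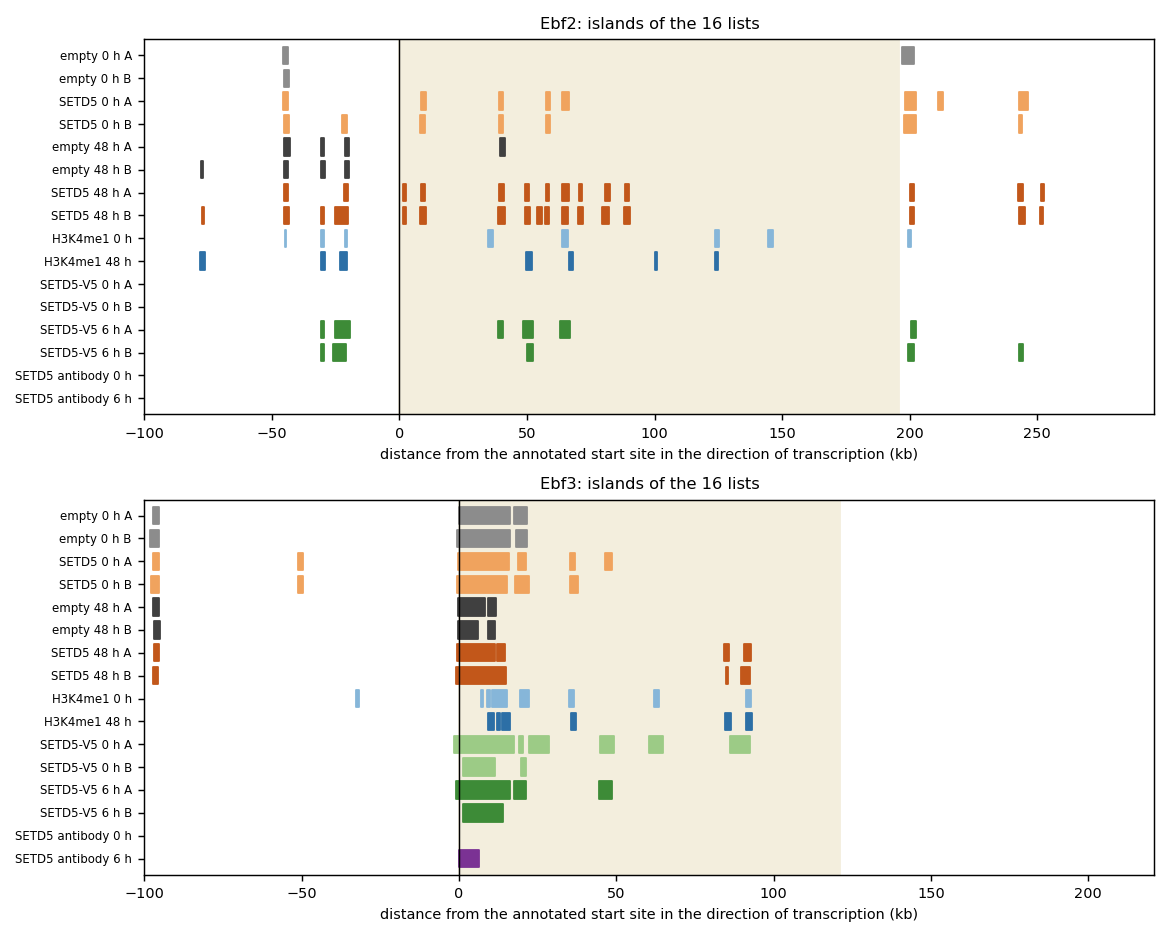
Islands of the 16 lists, 1 lane per library, along the windows of Ebf2 (top) and Ebf3 (bottom). The horizontal axis is the distance from the annotated start site in kb in the direction of transcription, shading marks the gene body and the vertical line the start site. The Ebf2 gene body fills with islands in SETD5 cells at 48 h (9 and 10), and the long Ebf3 island at the start site is shorter in empty vector cells at 48 h (8800 and 6400 bp) than in the other H3K27ac libraries (12200 to 16800 bp).

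H3K27ac cover at Ebf3 fell during differentiation of empty vector cells, and at 48 h it was higher in SETD5 cells. Cover of its window (ENSMUSG00000010476.6, chr7:144285356-144606128, 321 kb) was 7.05% and 7.17% at 0 h and 4.18% and 3.24% at 48 h in empty vector cells, and 8.04% and 8.42% at 0 h and 6.3% and 6.55% at 48 h in SETD5 cells. No 2 of the 4 groups overlapped. The fall in empty vector cells was 3.4 ± 0.713 points (estimate -3.4, adjusted p = 0.00338, limma), in a comparison that called 14.5% of windows lower and 28.7% higher, with a median of 0.525 points over all windows. In SETD5 cells the difference was -1.81 ± 0.713 points (adjusted p = 0.0815), the median of all windows being 0. At 48 h SETD5 cells were higher by 2.71 ± 0.713 points (adjusted p = 0.0247), above 91.6% of windows. This call did not pass among islands above the median score (1.59 points, adjusted p = 0.126), nor without any 1 of the 4 libraries compared (adjusted p = 0.0507 to 0.122). At 0 h the difference was 1.12 ± 0.713 points (adjusted p = 0.514), and the interaction was 1.59 ± 1.01 points (adjusted p = 0.384).

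In empty vector cells the change lay in a long island over the Ebf3 promoter and the beginning of the gene body, and in the loss of an intronic element at +19.8 kb. The island measured 16200 and 16800 bp in empty vector cells at 0 h, 8800 and 6400 bp at 48 h, 16200 and 16000 bp in SETD5 cells at 0 h, and 12200 and 16000 bp at 48 h. Its scores were exceeded by 1.36% and 1.23% of the list, then 5.26% and 7.73%, then 0.521% and 0.571%, and finally 1.72% and 1.78%. Length and rank were thus lowest in the empty vector libraries at 48 h, which overlapped no other group. The island overlapped the annotated start site in all 8 libraries. A separate island remained within its 0 h extent at +10.4 kb in both empty vector libraries at 48 h (2600 and 2200 bp). SETD5 replicate A at 48 h likewise held one at +13.3 kb (2400 bp). The shortening therefore includes a split of the long island.

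The Ebf3 intronic element at +19.8 kb (5000 bp) was listed at 0 h in all 4 libraries and at 48 h in none. Its islands at 0 h were 4400 and 3600 bp long in empty vector cells and 2600 and 4400 bp in SETD5 cells, with 34.8% to 36.1% of the list above them in 3 libraries and 32.7% in the other. Of the 108 windows of 200 bp listed in both empty vector libraries at 0 h, 44 (40.7%) were in neither at 48 h, against 28% over the genome, and none of 51 was gained, against 29.6%. In SETD5 cells 25.9% of 116 were lost, against 22.9%, and 13% of 92 gained, against 24.3%. At 48 h, 29 of the 92 windows of SETD5 cells (31.5%) were in neither empty vector library, and 1 of 51 (1.96%) was lost, against 13.6% and 12.9% over the genome. Among islands above the median score the gained share was 8.82% of 68, below the 15.9% of the genome. With equal numbers of islands it was 29.2% of 89, against 10.8%. Over elements, the empty vector lost 1 of 3 and gained 0 of 2, against 26.6% and 22.5% of all elements, and SETD5 cells lost 3 of 5 and gained 2 of 4, against 20.2% and 21%. The other lost elements were at +36.5 kb (2800 bp) and -50.4 kb (1400 bp), and the gained ones at +91.2 kb (3400 bp) and +85.1 kb (1600 bp).

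**Figure D3:**
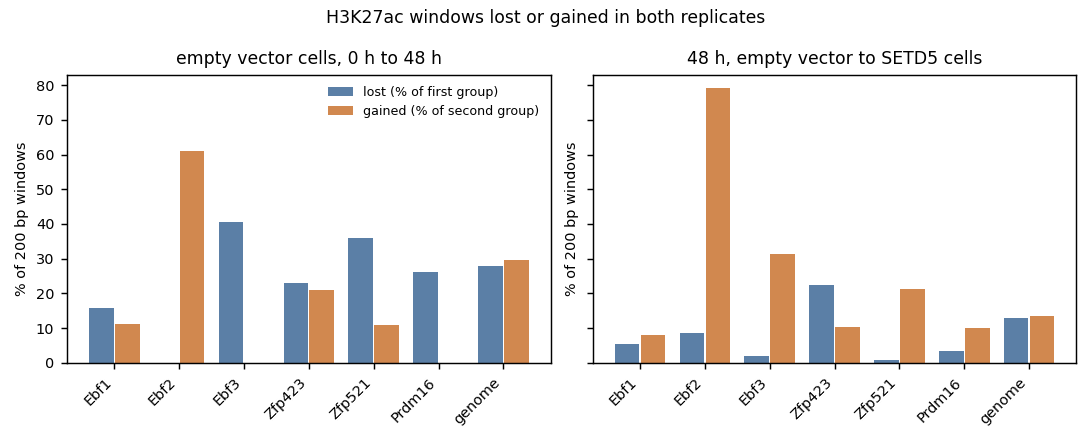
Percent of 200 bp windows with H3K27ac lost (blue, of the windows listed in both libraries of the first group) or gained (orange, of those listed in both of the second) for each gene and for the genome, in empty vector cells from 0 h to 48 h (left) and from empty vector to SETD5 cells at 48 h (right). Lost or gained means both libraries of a group against neither of the other. Ebf3 has 40.7% lost and 0 gained on the left, and Ebf2 has 79.1% gained on the right against 13.6% in the genome.

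Zfp423, the preadipocyte commitment factor, did not pass the test in any H3K27ac comparison of the main fit, which used all libraries and no replicate block. Cover of its window (ENSMUSG00000045333.9, chr8:90085709-90583494, 498 kb) with the empty vector was 11.5% and 7.92% at 0 h and 9.72% and 5.3% at 48 h, and with SETD5 9.6% and 9.8% at 0 h and 5.54% and 5.87% at 48 h. Empty vector groups overlapped between times, and SETD5 groups did not. The differences with time were -2.19 ± 1.49 points (adjusted p = 0.268, limma) in empty vector cells and -4 ± 1.49 points (adjusted p = 0.0671) in SETD5 cells. Without replicate A of empty vector cells at 48 h the first was -4.4 points and passed (adjusted p = 0.0398), and with a replicate block the second passed (adjusted p = 0.0401). SETD5 and empty vector cells had the same mean at 0 h (9.7%), and the difference at 48 h was -1.81 ± 1.49 points (adjusted p = 0.437).

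Within the Zfp423 window the leading island changed. The intronic element at +257 kb led at 0 h in all 4 libraries, with islands of 4600 and 4800 bp in empty vector cells and 4600 and 5200 bp in SETD5 cells, and 2.97% to 4.69% of the list scored higher. At 48 h its islands were 4600 and 2400 bp in empty vector cells, ranked 5 in the window with 29.7% and 37.4% of the list above them, and 2800 and 3600 bp in SETD5 cells, ranked 3 with 26.5% and 22.3% above. The 0 h and 48 h libraries did not overlap in that rank. The island over the start site led in all 4 libraries at 48 h. It was 3800 and 3800 bp at 0 h and 5400 and 4200 bp at 48 h in empty vector cells, and 3400 and 4200 bp at 0 h and 3400 and 4000 bp at 48 h in SETD5 cells, with 3.4% to 8.22% of the list above it over the 8 libraries.

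The intronic element at +242 kb of Zfp423 (7200 bp) was listed in both empty vector libraries at 0 h and neither at 48 h, as was that at +155 kb (3800 bp). The second of these was listed in both SETD5 libraries at 48 h, and the first in 1. Elements at +273 kb (3800 bp) and -15.6 kb (3000 bp) were lost between 0 h and 48 h in both vectors, and that at +107 kb (2800 bp) was gained in both. Of 200 bp windows, 23% of 178 were lost and 20.9% of 129 gained in empty vector cells, against 28% and 29.6% over the genome. In SETD5 cells 33.9% of 192 were lost and 10.2% of 108 gained, against 22.9% and 24.3%.

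Zfp521, the relative that opposes Zfp423, had lower cover at 48 h than at 0 h in empty vector cells. Cover of its window (ENSMUSG00000024420.7, chr18:13745522-14231242, 486 kb, no other coding gene) was 11.7% and 8.15% at 0 h and 6.46% and 5.68% at 48 h in empty vector cells, and 12.1% and 12.5% at 0 h and 9.35% and 9.06% at 48 h in SETD5 cells. The 48 h libraries lay below the 0 h libraries in both vectors, and at 48 h the SETD5 libraries lay above the empty vector libraries. Cover fell by 3.83 ± 1.17 points in empty vector cells (estimate -3.83, adjusted p = 0.023, limma). The call did not pass with 50 kb flanks (adjusted p = 0.0769), with equal numbers of islands (adjusted p = 0.0711), or without replicate A at 0 h (-2.08 points, adjusted p = 0.156), A at 48 h (0.0571) or B at 48 h (0.0965). In SETD5 cells the difference was -3.07 ± 1.17 points (adjusted p = 0.0731), at 0 h SETD5 cells differed by 2.37 ± 1.17 points (adjusted p = 0.378) and at 48 h by 3.13 ± 1.17 points (adjusted p = 0.0879).

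The start-site island led the Zfp521 window in all 8 libraries. It was 7400 and 6600 bp in empty vector cells at 0 h and 7400 and 5600 bp at 48 h, and 7600 and 5600 bp in SETD5 cells at 0 h and 7800 and 6600 bp at 48 h. Only 1.38% and 0.956% of the list scored higher in empty vector cells at 0 h, 3.96% and 2.83% at 48 h, 0.633% and 0.678% in SETD5 cells at 0 h, and 1.34% and 1.49% at 48 h. The island downstream of the gene at +351 kb was 5800 and 5600 bp at 0 h and 2600 and 2200 bp at 48 h in empty vector cells, with 4.83% and 3.53% of the list above it at 0 h and 71.2% and 51% at 48 h. In SETD5 cells it was 5600 and 5000 bp at 0 h and 3200 and 3600 bp at 48 h, with 3.81% and 4.89%, then 27.7% and 24.9% of the list above it. All 4 groups kept this island, and its rank at 48 h was lower in empty vector than in SETD5 cells in both replicates.

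The intronic element at +29.9 kb of Zfp521 (5800 bp) was listed in both libraries at 0 h in both vectors, in neither empty vector library at 48 h and in both SETD5 libraries at 48 h, where 73.9% and 84.8% of the list scored higher. The element at +136 kb (4200 bp) was lost and that at +260 kb (4800 bp) gained in both vectors. Upstream, elements at -15.7 kb (2200 bp) and -93.7 kb (1800 bp) were lost in SETD5 cells only. That at -15.7 kb was also listed in replicate A of empty vector cells at 0 h. Of 200 bp windows, 35.9% of 192 were lost in empty vector cells and 11% of 127 gained, against 28% and 29.6% over the genome. At 48 h, 21.4% of the 173 windows of SETD5 cells were in neither empty vector library and 1 of 127 (0.787%) was lost, against 13.6% and 12.9% over the genome. With equal numbers of islands the gained share was 6.21%, below the 10.8% of the genome.

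**Figure D4:**
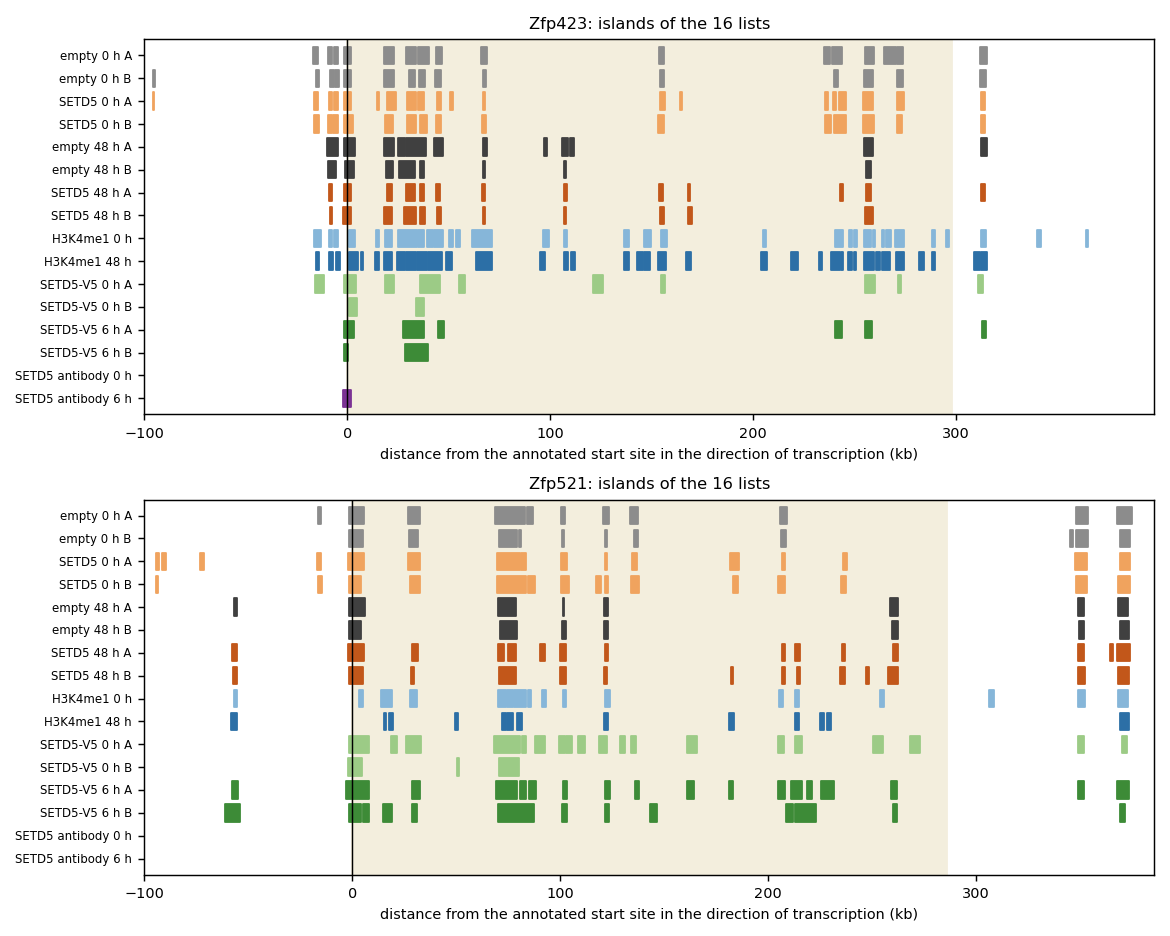
Islands of the 16 lists along the windows of Zfp423 (top) and Zfp521 (bottom), 1 lane per library, with the distance from the start site in kb on the horizontal axis, shading for the gene body and a vertical line at the start site. Both genes keep an H3K27ac island over the start site in all 8 libraries, and the H3K4me1 lanes of Zfp423 hold 32 and 36 islands.

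Prdm16, the brown fat co-regulator, had no H3K27ac island over its gene body or upstream of it in any of the 8 lists. The islands of its window (ENSMUSG00000039410.9, chr4:153590234-154110982, 521 kb) lay downstream, from +343 to +426 kb of the start site, within the genes Megf6 and Arhgef16. Cover was 5.49% and 6.64% at 0 h and 2.57% and 3.57% at 48 h in empty vector cells, and 5.11% and 6.03% at 0 h and 3.64% and 3.46% at 48 h in SETD5 cells. In both vectors the 48 h libraries lay below the 0 h libraries. Cover fell by 3 ± 0.658 points in empty vector cells (estimate -3, adjusted p = 0.0043, limma) and by 2.02 ± 0.658 points in SETD5 cells (estimate -2.02, adjusted p = 0.0401). The second call did not pass among islands above the median score (-0.445 points, adjusted p = 0.453), with equal numbers of islands (-1.14 points, adjusted p = 0.179), with islands merged across 1000 bp (adjusted p = 0.0635), or without any 1 of the 4 libraries compared (adjusted p = 0.0632 to 0.215).

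These values describe the Megf6 and Arhgef16 end of the Prdm16 window. The leading island, in an intron of Megf6 near +391 kb, was 15200 and 8800 bp in empty vector cells at 0 h and 8200 and 8000 bp at 48 h, with 2.96% and 2.4% of the list above it at 0 h and 12.7% and 8.7% at 48 h. In SETD5 cells it was 8400 and 8600 bp at 0 h and 7800 and 8000 bp at 48 h, with 3.58% and 3.5%, then 5.11% and 5.81% of the list above it. The element at +403 kb (4600 bp) was listed in both libraries at 0 h and neither at 48 h in both vectors, and that at +343 kb (2200 bp) likewise in SETD5 cells. SETD5 and empty vector cells differed by -0.499 ± 0.658 points at 0 h (adjusted p = 0.809) and 0.48 ± 0.658 points at 48 h (adjusted p = 0.661). With 50 kb flanks, or 100 kb around the start site alone, the Prdm16 window was under the filter of 0.5% mean cover and gave no test.

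**Figure D5:**
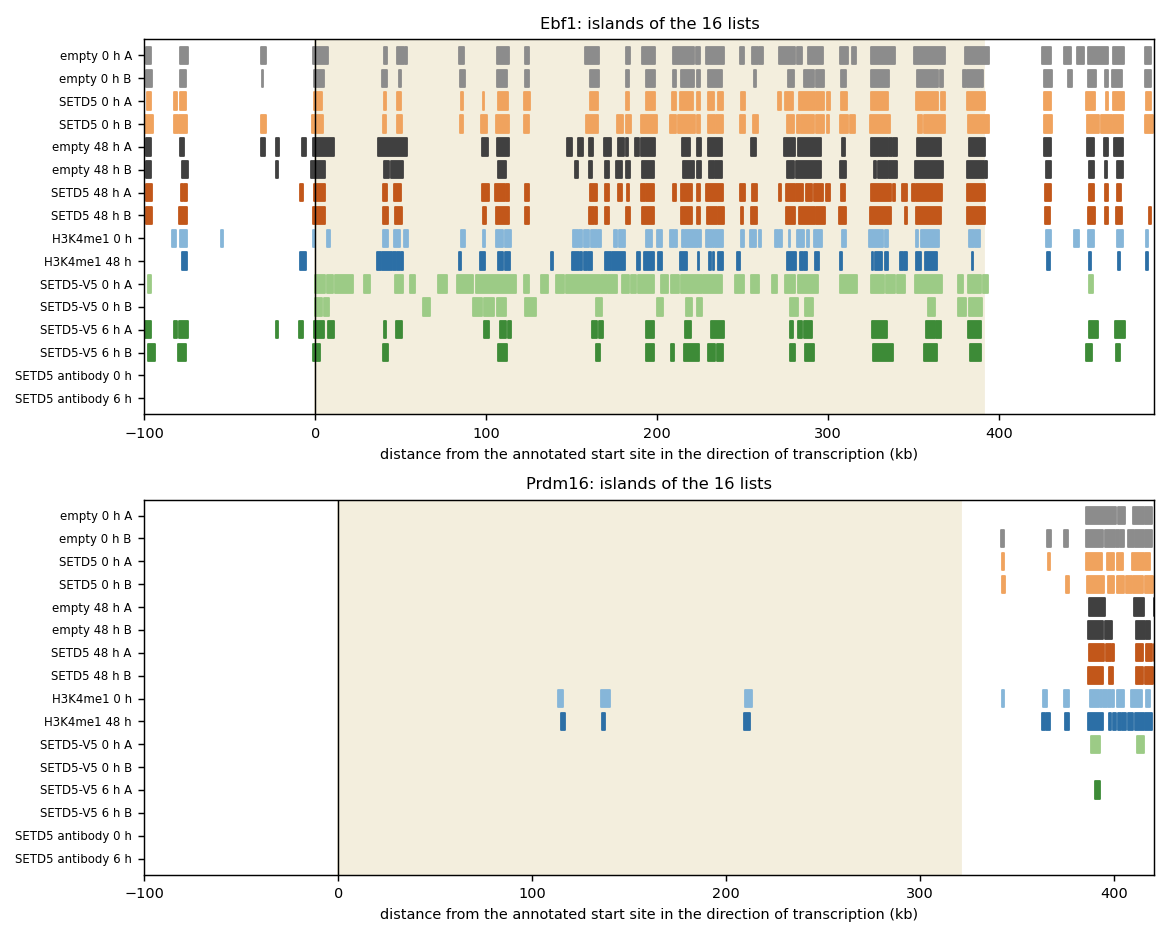
Islands of the 16 lists along the windows of Ebf1 (top) and Prdm16 (bottom), 1 lane per library, with the distance from the start site in kb on the horizontal axis, shading for the gene body and a vertical line at the start site. Ebf1 holds 30 to 40 islands in each H3K27ac library, and the shaded Prdm16 gene body is empty except for 3 H3K4me1 islands at each time.

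SETD5-V5 occupied Ebf1, Ebf3, Zfp423 and Zfp521 before MDI, and Ebf2 after it. Ebf2 had no SETD5-V5 island in either replicate at 0 h, and 6 and 5 islands at 6 h. Cover at 6 h was 4.74% and 3.13%, a difference of 3.93 ± 1.14 points (adjusted p = 0.133, limma). It was 3.13 points without replicate A at 6 h (adjusted p = 0.00831) and 4.74 points without replicate B (adjusted p = 0.000776), fits in which the spread rests on libraries at 0 alone. None of 16635 windows was called (0%), 5301 passed an unadjusted p under 0.05, and the median over all windows was 5.98 points, so that Ebf2 exceeded only 36.1% of windows. With a replicate block 6902 windows were called, none of them the Ebf2 window (adjusted p = 0.0514) or that of Ebf1, Ebf3, Zfp423 or Zfp521 (adjusted p = 0.183 to 0.647). Of the 6 Ebf2 islands of replicate A, 4 were also listed in B, near +202 kb, +50.4 kb, -22.2 kb and -30.3 kb, and 45.6% to 98.5% of the list scored above the 6. The +50.1 kb element was listed for H3K27ac in both SETD5 libraries at 48 h and for H3K4me1 at 48 h only. All 45 windows of 200 bp shared by both replicates at Ebf2 were new at 6 h, which follows from the absence of any island there at 0 h. Over the genome 54.7% were new and 7.22% were lost.

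At Ebf3, SETD5-V5 sat on the same long island as H3K27ac at both times. It was 19200 bp (A) and 10200 bp (B) at 0 h and 17200 and 12600 bp at 6 h, with 3.54% and 12.3% of the list above it at 0 h and 3.05% and 5.94% at 6 h. Every one of the 63 windows of 200 bp shared at 6 h (100%) was also marked by H3K27ac in both libraries at 0 h, in either vector, against 37% and 38.5% over the genome. Of these windows 0 were gained and, of 55 at 0 h, 0 were lost. The islands of replicate B ended short of the start site by more than 1000 bp. Ebf3 cover was 13% and 3.68% at 0 h and 7.86% and 3.93% at 6 h, a difference of -2.46 ± 4.4 points (adjusted p = 0.653, and 2.21 points without replicate A at 0 h).

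The replicates of SETD5-V5 differed most at Ebf1. Ebf1 cover was 42.1% (A) and 12.5% (B) at 0 h and 17.4% and 14.5% at 6 h, with 37 and 16, then 26 and 18 islands, and the difference was -11.4 ± 11.2 points (adjusted p = 0.431), which became 3.47 points without replicate A at 0 h. Of its 26 islands at 6 h in replicate A, 18 were also in B, and 93% of the 298 shared windows carried H3K27ac in empty vector cells at 0 h. The highest-scoring Ebf1 islands at 6 h were at +360 kb (5000 bp) in A and +332 kb (11600 bp) in B. Zfp521 had 19 and 3 islands at 0 h and 18 and 13 at 6 h, with cover of 17.3% and 3.71%, then 15.5% and 13.2%, and a difference of 3.81 ± 6.12 points (adjusted p = 0.618, and -3.01 points without replicate B at 0 h). The leading Zfp521 island lay between +74.3 and +78.8 kb in 3 of the libraries, at 12600 and 10000 bp at 0 h and 17200 bp in B at 6 h, and over the start site (11200 bp) in A at 6 h. Zfp423 had 10 and 2 islands at 0 h and 6 and 2 at 6 h, with cover of 8.84% and 1.57%, then 5.54% and 2.69%, and a difference of -1.08 ± 3.21 points (adjusted p = 0.784, and 2.55 points without replicate A at 0 h). Its leading island at 6 h, near +33 kb, was 10600 and 11200 bp long, with 7.8% and 11.5% of the list above it. Prdm16 had 2 islands at 0 h and 1 at 6 h in replicate A, all in Megf6, and none in B, and was under the filter.

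Endogenous SETD5 was listed at none of the 6 genes at 0 h and at Ebf3 and Zfp423 at 6 h. The Ebf3 island covered the start site over 6400 bp, and 26.1% of the list scored higher. The Zfp423 island covered the start site over 4000 bp, and 95.3% of the list scored higher. Both overlapped SETD5-V5 islands of replicates A and B at 6 h. With 1 library per time, no test was made.

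H3K4me1 was widest at Ebf1 and Zfp423. Cover at 0 h and 48 h was 23.9% and 18.6% at Ebf1, 18.6% and 22.3% at Zfp423, 9.8% and 5.81% at Zfp521, 7.37% and 7.18% at Prdm16, 4.93% and 3.49% at Ebf3, and 2.82% and 3.03% at Ebf2. Islands numbered 50 and 44 at Ebf1, 32 and 36 at Zfp423, 17 and 13 at Zfp521, 14 and 14 at Prdm16, 8 and 6 at Ebf3 and 8 and 7 at Ebf2. In the genome 40.1% of 200 bp windows were lost and 44.4% gained between these libraries. At Zfp423 21.4% were lost and 34.7% gained, and at Zfp521 62.6% were lost and 36.9% gained. At Ebf3 57% were lost and 39.3% gained. The Prdm16 gene body held 3 H3K4me1 islands at each time, near +115, +138 and +211 kb at 0 h and +116, +137 and +211 kb at 48 h, and no island of any other kind. The Ebf3 element at +19.8 kb carried H3K4me1 at 0 h and not at 48 h, and the Zfp423 element at +257 kb carried it at both times.

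At the start sites, 4 of the 6 genes, Ebf1, Ebf3, Zfp423 and Zfp521, had an H3K27ac island within 1000 bp in both libraries of every group. Among 22367 genes the share was 43.9% at 0 h and 44.9% at 48 h with the empty vector, and 45.1% and 46.5% with SETD5. For SETD5-V5 the start sites were those of Ebf1 and Zfp521 at 0 h, against 4.65% of all genes, and Ebf1, Zfp423 and Zfp521 at 6 h, against 21.5%. The H3K4me1 list at 0 h reached within 1000 bp of the Ebf1 start site and of no other of the 6, against 22% of all genes, and that at 48 h of none, against 23.5%. Endogenous SETD5 was at no start site of the 6 at 0 h, against 1.82%, and at those of Ebf3 and Zfp423 at 6 h, against 6.02%.

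A list of 25 partners, upstream signals and fate markers of these factors was described beside them, and 22 were measured. In empty vector cells 7 rose and 4 fell from 0 h to 48 h, with a median of 0.21 points, beside 28.7% of all windows called higher and 14.5% lower. These shares are near those of all windows, and nothing is read from them about the list. Those that rose included the adipogenic factors Cebpb (21.4 ± 3.17 points, adjusted p = 0.000438, limma) and Pparg (20.2 ± 3.71 points, adjusted p = 0.00158), the thermogenic transcription factor Irf4 (11.3 ± 1.15 points) and the uncoupling protein gene Ucp1 (3.6 ± 0.475 points). The others were Tle3 (7.48 ± 1.17 points), Bmpr1a (5.67 ± 1.21 points) and Zfp516 (3.46 ± 0.937 points). Ppargc1a (-1.37 ± 1.23 points) and the fate markers Cidea (-1.03 ± 0.966 points) and Cox7a1 (0.457 ± 1.27 points) were not called. Those that fell were Bmp4 (-9.77 ± 0.701 points) and Bmp7 (-2.02 ± 0.466 points), ligands that promote fat commitment, and Smad1 (-4.94 ± 0.628 points) and Smad5 (-3.13 ± 0.854 points), which carry their signal. Of the other Bmp, Bmpr and Smad genes measured, Bmpr1a rose, and Bmpr2 (-1.21 ± 0.659 points) and Smad4 (0.906 ± 0.445 points) were not called. In SETD5 cells 2 rose, Cebpb and Irf4, and the same 4 fell, with a median of -0.354 points, beside 17.3% and 13.9% of all windows. At 0 h no member of the list was called between vectors, beside 2.64% of all windows called in either direction. At 48 h Mecom (4.27 ± 1.19 points), a relative of Prdm16, and the co-repressor Ctbp2 (3.83 ± 0.939 points) were higher in SETD5 cells, and Pparg (-16 ± 3.71 points), Tle3 (-7.72 ± 1.17 points), Ppargc1a (-5.33 ± 1.23 points) and Ucp1 (-2.59 ± 0.475 points) were lower, 2 and 4 of the 22 beside 7.95% and 12.4% of all windows. The interaction called Tle3, Bmpr1a and Ucp1 lower and none higher, beside 4.02% of all windows called lower and 2.13% higher.

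The windows most like each gene in cover over the 16 lists, by Euclidean distance in percentage points, were those of Isl2, Cyfip1 and Siglech for Ebf2 (5.01 to 5.12), Fam110b, Akap12 and Nr3c2 for Ebf3 (5.9 to 6.37), and Accs, Accsl and Asb10 for Zfp423 (7.01 to 8.46). For Zfp521 they were Gm9799, 1810062G17Rik and Dnaja2 (6.37 to 7.65), for Prdm16 Gm2023, Tmem89 and Nxf2 (3.12 to 3.84), and for Ebf1 Copg2, Tns3 and Srp14 (22.8 to 25.2). Distances from a window with no island in any list were 14.5 for Ebf2, 25.5 for Ebf3, 39.2 for Zfp423, 40.1 for Zfp521, 17 for Prdm16 and 96.3 for Ebf1.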

How the data were processed

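Chromatin immunoprecipitation was read in 16 libraries of 3T3-L1 cells. Reads of 36 bp were mapped by the authors to the mouse genome mm9 with ELAND or Bowtie2 and islands were called in each library with SICER (200 bp windows, an E-value of 100, and a gap of 400 bp in histone mark libraries or of 600 bp in SETD5 libraries), without pooling of replicates. The deposited lists hold chromosome, start, end and an island score, per the file headers or values, with no reads per island. The study states total reads per library, which entered no computation here. A share of a list with a higher score replaces the score between libraries. The submitters' processing notes also name deepTools, and the lengths of the replicate A H3K27ac and SETD5-V5 lists and of the endogenous SETD5 lists are those the study gives for the SICER2 release, while the release behind the other lists is not given in the sources used here.

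Genes and starts came from the GENCODE annotation of NCBIM37, the Ensembl name of mm9, and every island end lay within its chromosomes. For each of 22367 protein-coding genes the percentage of the gene body plus 100 kb lying in islands was computed with numpy 2.4.6 in Python 3.11.15, and the sequences were read with pysam 0.24.0. Windows with a mean cover of at least 0.5% were fitted with limma 3.58.1 in R 4.3.3, on the percentage itself, with 1 coefficient per group, separately for H3K27ac (8 libraries) and SETD5-V5 (4 libraries), and were adjusted by Benjamini-Hochberg over all windows fitted. The fit was run on simulated data with planted changes mostly larger than those called at the named genes, and no rate of recovery is given here. Overlaps needed 1 bp. A 200 bp window or element was lost or gained when listed in both libraries of a group and neither of the other.

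The text names the 6 genes, for each group the island with the highest score and the islands at start sites, the longest elements lost or gained, the nearest patterns, and the called members of a fixed list of partners. Members and lists were chosen with earlier results of these data known. Other islands were named after their values were seen, among them the Ebf2 elements near the start site and at +50.1 kb, the Zfp423 element at +257 kb at 48 h and the Zfp521 element at +351 kb. Alternatives were the width of the window, islands above the median score, equal numbers of islands, merging across 1000 bp, a log2 scale with 0.5 added, scaling to covered length, no filter, a replicate block, and leaving out each library. Samples were grouped by the labels for antibody, vector and time, and no sample was left out of the description. The labels give replicates the letters A and B.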

Additional observations from a re-analysis of the deposited data

How the results depend on the processing

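Among the estimates for the 6 genes that passed the test, 62 values under an alternative kept their direction and call, 24 no longer passed and 1 reversed. Of those that did not pass, 329 kept their direction and side of the threshold, 14 passed under an alternative and 38 reversed. The higher Ebf2 cover in SETD5 cells at 48 h passed under every alternative run except islands above the median score, with 4.11 to 7.34 points when 1 library was left out. The falls of Ebf3 and Prdm16 in empty vector cells passed under every alternative that gave a value. Replicates have 2 libraries a group, and leaving out 1 assumes that the lone library varies like the others. The letters A and B share only a letter: the A minus B differences of the H3K27ac groups correlated at -0.364 to 0.295, and those of SETD5-V5 at 0.462. With the replicate block limma called 7621, 5393, 466, 3427 and 935 windows in the 5 H3K27ac comparisons and 6902 for SETD5-V5, where the fit without it called 7959, 5742, 487, 3757, 1134 and 0. Among the H3K27ac values of the 6 genes the block changed 1 call, that of Zfp423 in SETD5 cells over time, which then passed (-4 points, adjusted p = 0.0401), and among their SETD5-V5 values none.

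The count of called windows at 0 h between vectors was 317 with 50 kb flanks and 1366 with cover scaled to covered length, which also gave 5781 at 48 h and 2910 for the interaction. The share called higher at 0 h was 227 of 487, and 87 of 327 with equal numbers of islands, 400 of 660 on the log2 scale and 409 of 663 above the median score. At 48 h it was 1464 of 3757, and 848 of 3618 with equal numbers. Leaving out 1 library gave 3383 to 3890 windows for SETD5 cells over time, 138 to 310 at 0 h, 1513 to 3642 at 48 h, 6 to 1855 for the interaction and 5 to 5037 for SETD5-V5.

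With 50 kb flanks the Ebf1 differences became 0.348 (empty vector), 0.204 (SETD5 cells) and -0.144 points (interaction). With 100 kb around the start site Ebf1 was 4.65 and Zfp423 0.85 points in empty vector cells, and the interactions of Ebf1 and Zfp521 were -5.2 and -0.56 points. Above the median score Zfp423 was 0.783 in empty vector cells, Ebf2 -0.277 in SETD5 cells, Ebf3 -0.312 at 0 h, Ebf1 0.745 at 48 h, Ebf2 -0.303 in the interaction, and Zfp423 0.321 for SETD5-V5. The Ebf1 interaction was -0.135 with equal numbers, -0.457 with merging and -0.000701 on the log2 scale, and Zfp521 was -8.1 for SETD5-V5 with scaling.

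In empty vector cells leaving out 1 library spanned -7.43 to 2.93 points for Ebf1, -0.0252 to 1.13 for Ebf2 and -4.4 to 0.0201 for Zfp423, and in SETD5 cells -6.47 to 2 for Ebf1. Between vectors it spanned -6.13 to 4.23 for Ebf1 and -1.08 to 0.0768 for Prdm16 at 0 h, and -4.03 to 2.17 for Ebf1, -4.02 to 0.402 for Zfp423 and -0.0224 to 0.983 for Prdm16 at 48 h. The interactions spanned -5.16 to 5.2 for Ebf1, -4.02 to 0.402 for Zfp423 and -0.988 to 2.51 for Zfp521, and SETD5-V5 -26.2 to 3.47 for Ebf1, -7.14 to 2.21 for Ebf3, -4.72 to 2.55 for Zfp423 and -3.01 to 10.6 for Zfp521.

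The 289 windows of 200 bp lost at the 6 genes over time in empty vector cells were 780 and 541 with replicate A or B alone, and the 121 gained were 363 and 287. In SETD5 cells 282 lost were 540 and 696, and 144 gained were 404, 308 and, above the median score, 60. Between vectors at 0 h 45 lost were 567 and 140, and 123 gained were 293, 613, 67 above the median score and 74 with equal numbers. At 48 h 67 lost were 421 and 188, and 223 gained were 428, 527, 95 and 141. Single libraries hold more windows than pairs by construction. Start sites within 2000 bp were 4 of 6 genes for SETD5-V5 at 0 h (2 within 1000 bp), 2 for H3K4me1 at 0 h (1, and 0 at the base alone) and 1 at 48 h (0), and endogenous SETD5 at 6 h was at 1 above the median score (2 in all). The cause of these changes was not tested. Scores and lengths depend on depth, which the lists do not give.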

Other observations

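Besides its first start site, Zfp423 has annotated starts at +5.73, +63.9 and +155 kb, and Ebf3 has one at +46.9 kb. The Zfp423 start at +155 kb carried an H3K27ac island in both libraries of empty vector cells at 0 h (2400 and 1800 bp), of SETD5 cells at 0 h (2600 and 3200 bp) and of SETD5 cells at 48 h (1600 and 2000 bp), and in neither library of empty vector cells at 48 h. Its islands ranked higher in SETD5 cells at 0 h, where 29.2% and 37.4% of the list scored higher, than in the other 2 groups, where 66.7% to 78.9% did. H3K4me1 islands of 3200 and 4200 bp lay there at 0 h and 48 h, and SETD5-V5 was listed in replicate A at 0 h. The Zfp423 start at +63.9 kb carried H3K4me1 at both times (10000 and 8000 bp, with 2.55% and 3.32% of the list above them) and no H3K27ac or SETD5 island. The Zfp423 start at +5.73 kb carried H3K4me1 at 48 h alone. The Ebf3 start at +46.9 kb overlapped 2000 bp of H3K27ac in SETD5 cells at 0 h, replicate A only, with 82.4% of the list above it, and SETD5-V5 islands in replicate A at 0 h and 6 h.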
